A study of Mus musculus with 8 samples.

Results

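The decapping and 5′ decay genes are *Dcp1a*, *Dcp1b*, *Dcp2*, *Dcps*, *Edc3*, *Edc4*, *Xrn1*, *Xrn2*, *Patl1* and *Lsm14a*, chosen by name and looked up in the deposited tables of transcripts. All 10 had an entry, with 13 distinct transcripts out of 19077 from 12200 gene names. The libraries come from round spermatid preparations, 4 from *Tdrd6*-/- and 4 from *Tdrd6*+/- animals (C57BL/6 background, all 26 days old). TDRD6 is a tudor domain protein that chromatoid bodies need for their structure. In the targeted allele, which both genotypes carry, the human surface protein hCD4 is read from the *Tdrd6* start codon, and cells positive for hCD4 were pulled out of testis with magnetic beads, so both groups are enriched preparations and neither is wild type. The tables give 1 FPKM per transcript and genotype, which Cuffdiff made from 4 libraries together. Because FPKM divides fragments by transcript length and by library size, levels were set side by side between genes. This holds as far as the annotated lengths are those of the transcripts in these cells, which was not tested. These values hold no spread between animals and no read counts. The authors' own test columns were not used, so no difference below was tested here or set against the spread between mice.

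*Tdrd6* itself, summed over its 3 transcripts, had 57.1 FPKM in *Tdrd6*+/- and 1.46 in *Tdrd6*-/- cells. All 6 round spermatid markers were listed, with the higher genotype between 91.2 and 263.9 FPKM per gene. Spermatocyte markers were present too (8 of 8 listed, up to 424.9 FPKM). The Sertoli markers *Sox9*, *Amh* and *Rhox5* had no entry and the other 3 stayed at or below 3.57 FPKM. Of 5 blood markers only *Lyz2* was listed, at 0.770 FPKM at most. Of 5 spermatogonial markers listed none was above 1.40 FPKM, and of 5 Leydig cell markers the highest, *Insl3*, had 19.6 FPKM.

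Decapping removes the 5′ cap of an mRNA and commits it to decay. DCP2 cuts the cap, DCP1 proteins activate it, and EDC3, EDC4, PATL1 and LSM14A bring the enzyme together with its substrates. XRN1 then degrades the body of the message from its 5′ end in the cytoplasm, while XRN2 does so in the nucleus, also when transcription ends. DCPS clears the short capped remnant left by decay from the other end. Several of these proteins gather in P-bodies, and the chromatoid body of spermatids shares components with them.

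The DCP1 cofactors differed widely in level. Dcp1a-201 (chr14:31292751-31340242, plus strand) had 1.92 FPKM in *Tdrd6*+/- and 2.28 FPKM in *Tdrd6*-/- cells. *Dcp1b*, its paralog, reached 66.99 FPKM in *Tdrd6*+/- and 58.6 in *Tdrd6*-/- cells over both listed transcripts, and was the most abundant member in either genotype. Nearly all of this was 1 isoform. Dcp1b-002 (chr6:119125306-119170203, plus strand) had 66.3 and 58.1 FPKM, above 91.0% of all transcripts, and Dcp1b-001 (chr6:119125270-119171631) had 0.720 and 0.537 FPKM. The isoforms differ at their 3′ ends, with 3′ UTRs of 105 nt in Dcp1b-002 and 1533 nt in Dcp1b-001, and at exon 8. That exon starts at 119167821 in Dcp1b-001 and at 119167920 in Dcp1b-002, so that Dcp1b-001 holds 33 more codons. The join of exon 7 to exon 8 tells them apart, shown here with the end of exon 7 in lower case and the start of exon 8 in capitals.
Dcp1b-001: gctcctcttctgcagTCTACCTGTGCCCCA
Dcp1b-002: gctcctcttctgcagAACTGGGAGTCCTCC
Dcp1b-001 was the member with the lowest log2 ratio, -0.42, while Dcp1b-002 stood at -0.19. Both isoforms of *Dcp1b* were thus lower in *Tdrd6*-/- cells, and *Dcp1a* was higher, with a log2 ratio of 0.25. Measured from the median of transcripts of similar length, Dcp1a-201 and Dcp1b-002 each stood at -0.08.

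**Figure D1:**
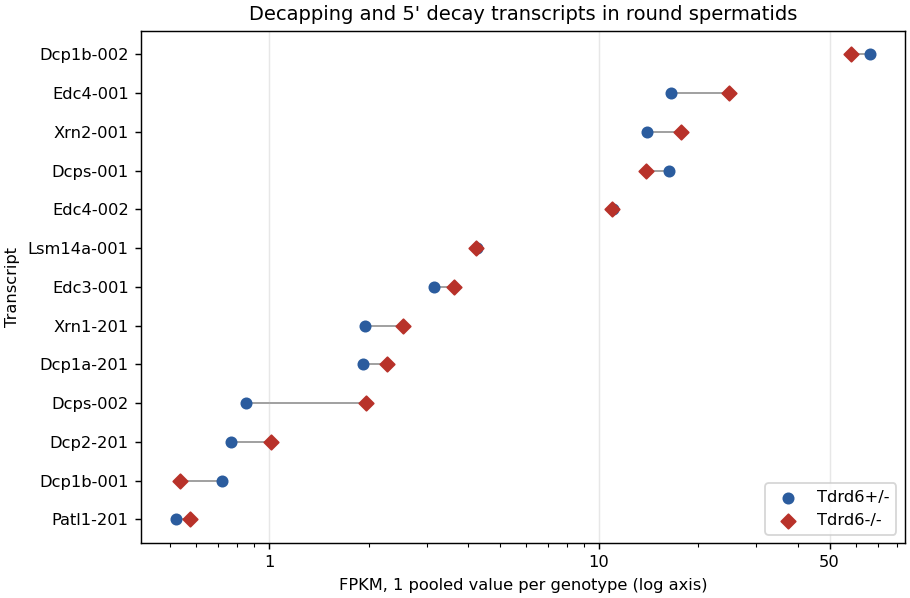
FPKM of the 13 member transcripts on a log axis, with 1 pooled value for Tdrd6+/- (blue circles) and 1 for Tdrd6-/- (red diamonds), ordered by mean. Dcp1b-002 stands above all others at 66.3 and 58.1 FPKM. The widest gap between genotypes on this log axis, that is as a ratio, is that of Dcps-002, from 0.848 to 1.96 FPKM. The pooled values carry no error bars.

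Among the enhancers, *Edc4*, the large scaffold that holds DCP1 and DCP2 together, was the most abundant. Summed over its 2 transcripts it had 27.5 FPKM in *Tdrd6*+/- and 35.7 FPKM in *Tdrd6*-/- cells, a ratio of 1.30. The whole of this difference sat in Edc4-001 (chr8:108404781-108417125, plus strand), which had 16.5 and 24.7 FPKM. Edc4-002 (chr8:108404851-108417108) had 11.0 FPKM in each genotype, a log2 ratio of 0.00 against 0.58 for Edc4-001. Edc4-001 therefore made up 60.0% of the gene's listed FPKM in *Tdrd6*+/- and 69.3% in *Tdrd6*-/- cells. Its ratio of 1.498 lies just short of 1.5-fold, the difference used below to count transcripts as higher or lower. Each isoform has 29 exons, and Edc4-001 starts exon 19 at 108413525 rather than 108413573, which adds 48 nt or 16 codons without a shift of frame. Only 135 nt of Edc4-001, at this exon and at both ends, are missing from Edc4-002, so the split of reads between them rests on few bases. The join of exon 18 (lower case) to exon 19 (capitals) reads as follows.
Edc4-001: cacactgacagaaagCCCCAGGAATGGCCT
Edc4-002: cacactgacagaaagGCCACCTTATCACTT

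The other enhancers were lower in level and differed less between genotypes. Edc3-001, which encodes a protein that binds the helicase DDX6 (chr9:57556347-57600306, plus strand), had 3.16 FPKM in *Tdrd6*+/- and 3.64 FPKM in *Tdrd6*-/- cells. Its exons share up to 411 nt with a single exon of *Clk3* on the opposite strand. The libraries were made with a kit that keeps strand, but whether reads were counted by strand is not given in the sources used here. Lsm14a-001, from the gene of a translational repressor found in P-bodies (chr7:35129665-35174559, minus strand), had 4.26 and 4.23 FPKM, a log2 ratio of -0.01. Patl1-201, from the gene of a scaffold that joins the LSM ring to the decapping enzyme (chr19:11986889-12019586, plus strand), had 0.521 and 0.575 FPKM and was the least abundant member by its mean. Log2 ratios were 0.20 for Edc3-001 and 0.14 for Patl1-201.

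*Dcps*, the scavenger enzyme, had 17.1 FPKM in *Tdrd6*+/- and 15.8 FPKM in *Tdrd6*-/- cells, but its isoforms went opposite ways. Dcps-001 (chr9:34931993-34983646, minus strand) had 16.3 and 13.9 FPKM, a log2 ratio of -0.23. Dcps-002 (chr9:34931997-34983644) had 0.848 and 1.96 FPKM, a log2 ratio of 1.21, and its share of the gene's FPKM was 4.95% in *Tdrd6*+/- and 12.4% in *Tdrd6*-/- cells. This was the only member transcript that differed by at least 1.5-fold.
The isoforms are told apart by an exon of 177 nt (chr9:34932752-34932928) that Dcps-002 has between the exons 5 and 6 of Dcps-001. Their joins to exon 5 are shown with exon 5 in lower case and the next exon in capitals.
Dcps-001: ctccgggaaggacaaGAAGCCATCCTGAAG
Dcps-002: ctccgggaaggacaaAGGCCTGAGCAAGGT
Translation of Dcps-002 ends within the added exon, after 291 codons in place of 338. Its stop codon is given in capitals here (chr9:34932797-34932814), above that of Dcps-001 (chr9:34932157-34932174).
Dcps-002: catttaccaagttccTAG
Dcps-001: cagcaagagaggaacTAG
DCPS belongs to the histidine triad family of hydrolases, whose active site holds histidines spaced 1 residue apart. The codons of the triad begin at codon 274 of Dcps-001, in its last exon (chr9:34932334-34932360), and are shown in capitals.
Dcps-001: tactatCACctgCACgtgCATttcaca
In Dcps-002 the same bases lie 120 nt beyond the stop codon, and 0 such triads remain in its reading frame. The stop codon of Dcps-002 lies 45 nt before its last exon junction, a position that leaves 1 junction in the 3′ UTR. This is closer than the distance past which the paper takes a stop codon as premature, and decay of Dcps-002 was not tested. Lsm14a-001 is the only other member with a junction after the stop, at a shorter 33 nt, and its log2 ratio was -0.01. Both are listed in the short and in the medium 3′ UTR table, and the parts of their 3′ UTRs on either side of that junction (45 and 433 nt in Dcps-002, 33 and 1313 nt in Lsm14a-001) fall in the length ranges of these tables. Both *Dcps* transcripts share up to 111 nt with a single exon of the non-coding gene *4930581F22Rik* on the opposite strand.

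**Figure D2:**
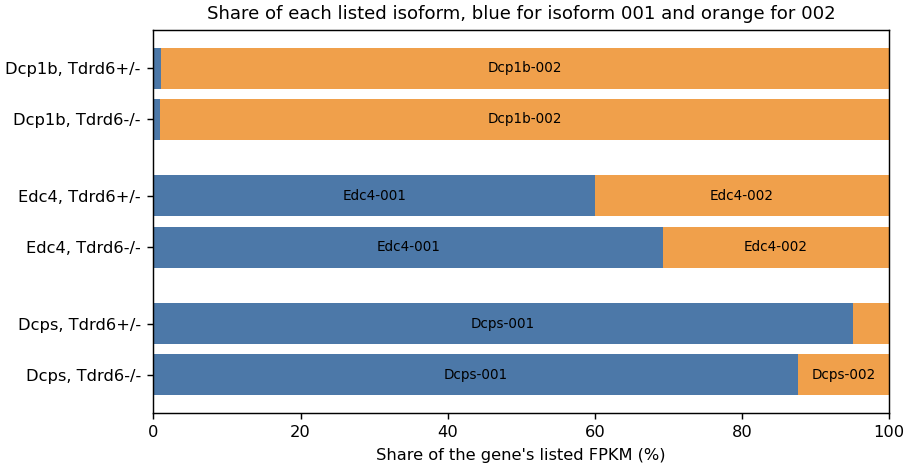
Share of the gene's listed FPKM (percent, from 0 to 100) held by isoform 001 (blue) and isoform 002 (orange) in Tdrd6+/- and Tdrd6-/- cells, for the 3 members with more than 1 listed transcript. Dcp1b-002 holds 98.9% and 99.1%, Edc4-001 60.0% and 69.3%, and Dcps-002 4.95% and 12.4%.

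*Dcp2*, the catalytic subunit, was among the least abundant transcripts of the machinery. Dcp2-201, its single listed transcript, had 0.767 FPKM in *Tdrd6*+/- and 1.01 FPKM in *Tdrd6*-/- cells, a log2 ratio of 0.40. It lies on chromosome 18 of mm9 (chr18:44540154-44584623, plus strand) and carries the longest 3′ UTR of the group, 7240 of 8643 nt. Only 19.2% of all transcripts had a lower mean FPKM.

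The exoribonucleases also differed from each other in level. Xrn2-001, of the nuclear enzyme (chr2:146838732-146903736, plus strand), had 14.01 FPKM in *Tdrd6*+/- and 17.7 FPKM in *Tdrd6*-/- cells. Xrn1-201, of the cytoplasmic enzyme (chr9:95855179-95953446, plus strand), had 1.95 and 2.55 FPKM. Its exons share up to 184 nt with a single exon of the non-coding gene *Gm16794* on the opposite strand. Both exoribonuclease transcripts were higher in *Tdrd6*-/- cells, with log2 ratios of 0.34 for *Xrn2* and 0.39 for *Xrn1*.
Ordered by summed FPKM of listed transcripts in *Tdrd6*+/- cells, the genes ran *Dcp1b*, *Edc4*, *Dcps*, *Xrn2*, *Lsm14a*, *Edc3*, *Xrn1*, *Dcp1a*, *Dcp2* and *Patl1*. In *Tdrd6*-/- cells *Xrn2* (17.7 FPKM) stood before *Dcps* (15.8 FPKM) and the rest of the order was the same. Whether neighbours in this order differ beyond the spread of animals cannot be told from pooled values. Over their listed transcripts the cytoplasmic core enzymes *Dcp2* and *Xrn1* thus had at most 2.55 FPKM in either genotype, while *Dcp1b*, *Edc4*, *Dcps* and *Xrn2* lay above 10 FPKM. Isoforms with no entry are not in these sums, so the full level of a gene may be higher.

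The members were set beside all transcripts. Of the 13 transcripts 1, Dcps-002, was higher and 0 were lower in *Tdrd6*-/- cells by at least 1.5-fold, where 11.6% of all distinct transcripts were higher and 11.1% lower. The same 1 and 0 passed 2-fold, where 4.43% of all transcripts were higher and 4.4% lower. At a mean FPKM from 1 to 2, where Dcps-002 lies, 16.3% of 2838 transcripts were higher by 1.5-fold, against 7.22% of 4531 transcripts at 5 to 20 FPKM. Beyond a log2 ratio of 0.32 in size, Dcps-002, Edc4-001, Dcp2-201, Xrn1-201 and Xrn2-001 were higher and Dcp1b-001 was lower (5 and 1 of 13, where 25.3% and 23.6% of all transcripts were). With transcripts summed per gene, 0 of 10 members reached 1.5-fold in either direction (6.22% of 12199 genes were higher and 7.86% lower). Beyond 0.32 on the log2 scale 4 of 10, *Dcp2*, *Edc4*, *Xrn1* and *Xrn2*, were higher and 0 lower (21.2% and 20.4% of genes).

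The median log2 ratio of the 13 transcripts was 0.20, and 8 (61.5%) were above 0. Over all transcripts the median was 0.01 and 51.2% were above 0. The tables, which divide transcripts by 3′ UTR length at 350 and 1500 nt, differed in this respect. Their medians were -0.13 (short), 0.03 (medium) and 0.20 (long). After subtraction of the median of its table, the median of the members was 0.04. The members of the long table were spread around its median, from 0.14 for Patl1-201 to 0.40 for Dcp2-201, with Dcp1b-001 below it at -0.42. In the short table Xrn1-201, with a 3′ UTR of 218 nt, stood at 0.39, above the upper quartile of 0.23.

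**Figure D3:**
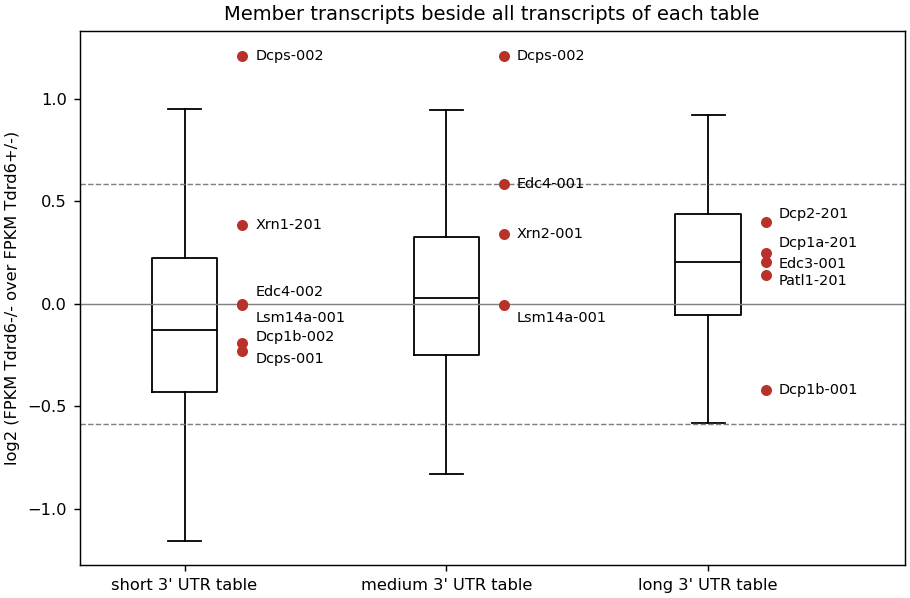
Log2 ratio of pooled FPKM, Tdrd6-/- over Tdrd6+/-, for the member transcripts (red points, named) beside all transcripts of the short, medium and long 3′ UTR tables (boxes show quartiles and median, whiskers the 5th and 95th percentiles); dashed lines mark 1.5-fold. Dcps-002 and Lsm14a-001 are drawn in both tables that list them, and only Dcps-002, at 1.21, lies outside a dashed line.

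Xrn1-201 has a short 3′ UTR but a total length of 5499 nt, so the ratios were also set against total length. Split at 3000 nt, a value chosen after the data were seen, 7 of 9 member transcripts above it were higher in *Tdrd6*-/- cells, all but Dcp1b-001 and Edc4-002. Of the 4 up to that length 1 was higher, Dcps-002. Among all transcripts 71.9% of those over 3000 nt and 39.8% of the shorter ones were higher. Over all transcripts in 20 length bins the median log2 ratio was -0.34 in the shortest and 0.37 in the longest bin. Measured from the median of its own bin, the median of the members was -0.08, below 0 where the unadjusted median was above it. Of the 13 members 9 lay within 0.2 of the median of their bin, a larger share than the 40.6% of all transcripts (7652 of 18853). The 4 others were Dcps-002 at 1.37, Edc4-001 at 0.34, Edc4-002 at -0.25 and Dcp1b-001 at -0.59, which are isoforms of the 3 genes with more than 1 listed transcript. *Dcp2*, *Xrn1* and *Xrn2*, the 3 genes whose only transcript had a log2 ratio above 0.32, stood at 0.03, 0.06 and 0.17 above the median of transcripts of their length.

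**Figure D4:**
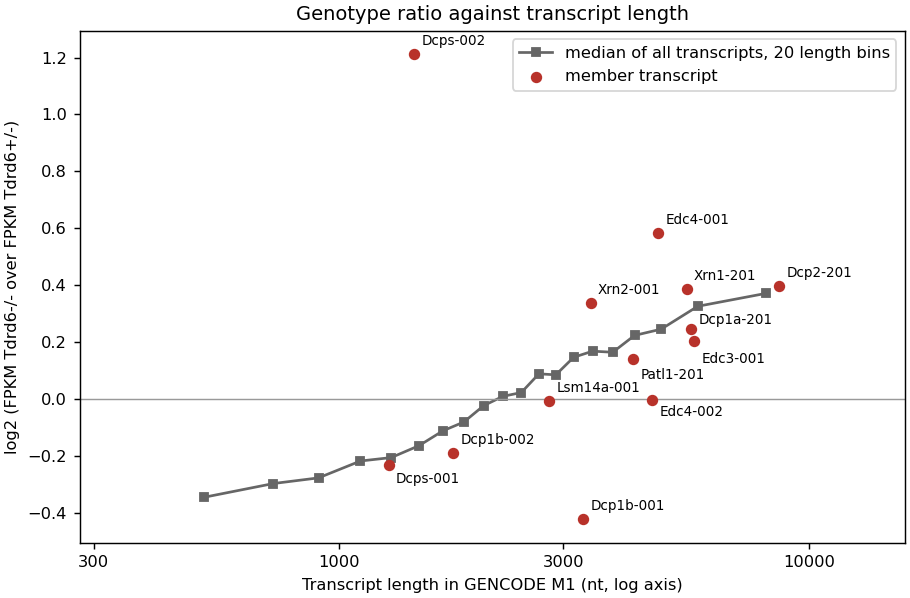
Log2 ratio of pooled FPKM, Tdrd6-/- over Tdrd6+/-, against transcript length in nt on a log axis, for the 13 member transcripts (red, named) and as the median of all transcripts in 20 length bins (grey squares, placed at the median length of the bin). The grey line runs from -0.34 in the shortest to 0.37 in the longest bin. Of the 13 red points 9 lie within 0.2 of the median of their bin, against 40.6% of all transcripts.

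Partners of the machinery were described from a list of 28 genes, of which 24 had an entry, with 40 transcripts. *Dxo* (also entered as *Dom3z*, which was listed), *Eif4e1b*, *Nkrf* and *Patl2* had none. Of the 40 transcripts 4 were higher and 3 lower by at least 1.5-fold (10% and 7.5%, where 11.6% and 11.1% of all transcripts were), and their median log2 ratio was 0.03. All 4 higher transcripts belong to genes of activators and repressors of decapping. *Ddx6*, the helicase that links translational repression to decapping, had 8.32 FPKM in *Tdrd6*+/- and 13.5 FPKM in *Tdrd6*-/- cells over both transcripts. Ddx6-202 alone had 0.865 and 3.06 FPKM. Ddx6-201, with 89.6% of the gene's listed FPKM in *Tdrd6*+/- cells, had 7.45 and 10.5 FPKM and did not pass 1.5-fold. It stood 0.17 above the median of transcripts of its length. Both transcripts have the same start and end, at 6033 (Ddx6-201) and 6065 nt, and the bases that tell them apart were not counted. *Lsm14b*, the paralog of *Lsm14a*, had 10.2 and 15.4 FPKM over its listed transcripts. Lsm14b-001 and Lsm14b-002 were higher by at least 1.5-fold, while Lsm14b-202 had 3.62 and 3.28 FPKM. *Eif4enif1*, whose protein binds the cap-binding factor eIF4E and DDX6, had 10.2 and 14.3 FPKM over its listed transcripts. Of these only Eif4enif1-003 passed 1.5-fold, with 3.31 and 6.44 FPKM. Eif4enif1-002, its most abundant transcript by mean, had 4.91 and 5.27 FPKM. Summed over listed transcripts, *Lsm14b* and *Lsm14a* therefore differed in their ratios, 0.60 and -0.01 on the log2 scale. *Pnrc2*, which in human cells links UPF1 to the decapping complex, had 8.52 and 6.83 FPKM, and *Pnrc1* had 13.1 and 13.7 FPKM.

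The LSM ring, formed by LSM1 to LSM7 and bound to the 3′ end of messages that are to be decapped, spanned a wide range of levels. *Lsm2* was its most abundant gene, with 187.0 FPKM in *Tdrd6*+/- and 151.7 FPKM in *Tdrd6*-/- cells, and *Lsm6* its least, with 0.889 and 1.01 FPKM. *Lsm4* had the lowest ratio of the ring, with 109.0 and 76.6 FPKM and a log2 ratio of -0.51. Of the 9 transcripts of the ring 7 had a log2 ratio below 0, but 4 did so when measured from the median of transcripts of their length, where Lsm4-001 stood at -0.23 and Lsm5-201 at 0.41. Of their 9 transcripts 1, Lsm2-201, was lower by at least 1.5-fold.
Other cap hydrolases were led by *Nudt3*, a Nudix enzyme with decapping activity, which had 121.6 and 97.6 FPKM. Of its 3 transcripts ENSMUST00000176876 had 54.8 FPKM in *Tdrd6*+/- and 29.9 FPKM in *Tdrd6*-/- cells. *Nudt12* was the least abundant of these, with 0.565 and 0.374 FPKM. Among XRN2 partners and termination factors *Cdkn2aip*, whose protein binds XRN2, had 40.1 and 39.5 FPKM, and *Ttf2*, a termination factor, had 1.11 and 1.37 FPKM. Among cap-binding genes *Eif4e2*, a repressor of translation, had 137.8 and 147.9 FPKM, and *Eif4e* itself had a log2 ratio of 0.07. *Ncbp1*, of the nuclear cap-binding complex, had 111.1 and 139.0 FPKM.

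**Figure D5:**
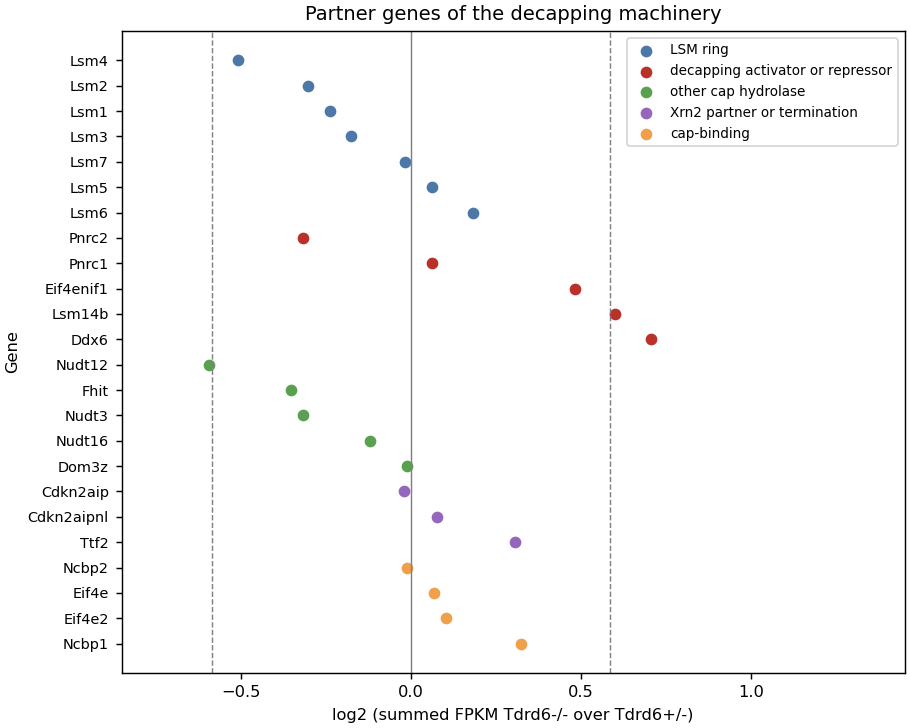
Log2 ratio of summed FPKM, Tdrd6-/- over Tdrd6+/-, for the 24 listed partner genes grouped by role (colours); dashed lines mark 1.5-fold. Ddx6 and Lsm14b lie beyond the upper line, at 0.70 and 0.60, and Nudt12 beyond the lower one at -0.59.

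Transcripts of late spermatid marker genes moved with the genotype. Per the paper, *Prm1* and *Prm2* of this list are transcribed already in early round spermatids and translated later. Their levels therefore do not measure late cells alone. The summed FPKM of 10 late spermatid markers was 21885 in *Tdrd6*+/- and 6301 in *Tdrd6*-/- cells. Of the 10 genes 7 were lower by at least 1.5-fold, where 7.86% of 12199 genes were. Among 4029 transcripts with a mean of at least 20 FPKM, 8.96% were lower and 1.64% higher. The 6 round spermatid markers summed to 1223 and 987, with a median log2 ratio of -0.39. Of these 6, 2 (*Izumo1* and *Tssk2*) were lower by at least 1.5-fold, again beside 7.86% of all genes. *Spata16* was higher, with 124.2 and 163.9 FPKM. The 8 spermatocyte markers summed to 766.8 and 676.7. Of these 8 spermatocyte genes 5 were higher in *Tdrd6*-/- cells, with a median log2 ratio of 0.26 over the list. *Syce3*, a component of the synaptonemal complex and the most abundant of the 8, had 424.9 and 279.5 FPKM. In bulk samples fewer cells of a type and less RNA per cell cannot be told apart. The part of these differences in the values of *Dcps*, *Edc4* and the other members was not tested.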

How the data were processed

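RNA of 4 *Tdrd6*-/- and 4 *Tdrd6*+/- round spermatid preparations was sequenced by the authors. The methods state removal of ribosomal RNA and the labels poly-dT selection. Alignment tools and build, per the submitters' processing notes, were Bowtie2 2.10 and TopHat2 2.0.9 on mm9, with Cufflinks 2.1.1 and Cuffdiff for quantification. What the authors deposited is 1 pooled FPKM per genotype and transcript, in 3 tables by 3′ UTR length with 19882 entries. How libraries were scaled to each other is not given in the sources used here, the pooled FPKM carry no read counts per library, and no sample could be left out. The fold change, test statistic, p-value and q-value columns hold the authors' own comparison and were not used.

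Each EnsemblID was used once. The log2 ratio of FPKM was taken with no pseudocount, and 43 transcripts at 0 in a genotype have none. Lengths, exons and sequences come from GENCODE M1 on the same build (18894 transcripts matched, and all 13 member transcripts lie within their deposited locus). Nothing was tested. A transcript counts as higher or lower at 1.5-fold. Alternatives were a log2 ratio of 0.32, 2-fold, a pseudocount of 0.1 or 1, a mean FPKM of at least 1, centring on the 3′ UTR table or on 20 length bins, and 1 value per gene. Genes named are the members, *Tdrd6*, and partners past 1.5-fold or at the extremes of FPKM within their role. Other partners, marker genes and decay genes are named as examples chosen after their values were seen. The split at 3000 nt, the classes of mean FPKM and the distance of 0.2 were chosen after the data were seen. Members and lists were chosen with earlier results of these data known. 1 planned partner gene is not reported here. The log2 ratio, the centring on the 3′ UTR table and the 2-fold count were tested on simulated data, and the other steps were not. Python 3.11.15, numpy 2.4.6, pandas 2.3.3 and matplotlib 3.10.9 were used.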

Additional observations from a re-analysis of the deposited data

How the results depend on the processing

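No paired analysis was possible because each genotype has 1 pooled value, and for the same reason no library could be left out. Of the member transcripts, 1 was higher and 0 lower at 1.5-fold. With transcripts summed per gene, or with the highest transcript of each gene, 0 were higher. At a log2 ratio of 0.32, 5 were higher and 1 lower of 13 (25.3% and 23.6% of all transcripts). Centred on the 3′ UTR table or on length bins, 1 (Dcp1b-001) was lower. The median log2 ratio of the member transcripts, 0.20, became 0.042 when the median of the 3′ UTR table was subtracted and -0.079 when that of the length bin was. Other settings, a pseudocount of 0.1 or 1 and a mean FPKM of at least 1 (10 transcripts left), gave medians of 0.20, 0.16 and 0.23. With 1 FPKM added, 4 of 13 member transcripts moved by at least 0.1. Among them the log2 ratio of Dcps-002 fell from 1.21 to 0.68, still past 1.5-fold but short of 2-fold. Signs of 4 members turned on table centring and of 3 (Dcp1a-201, Edc3-001 and Patl1-201) on length centring, none of them past 1.5-fold before. For the 4 higher and 3 lower of 40 partner transcripts, summing per gene gave 2 and 1 of 24, where 6.22% and 7.86% of all genes were. The highest transcript of each gene gave 1 and 1. A log2 ratio of 0.32 gave 10 and 6 of 40, where 25.3% and 23.6% of all transcripts were. At 2-fold there were 2 and 0 of 40, where 4.43% and 4.4% of all transcripts were. Shares of all transcripts past 1.5-fold were not computed after centring or for the highest transcript of each gene. Length centring gave 5 higher and 1 lower of 39 transcripts. It leaves out ENSMUST00000176876 of *Nudt3*, which was lower before and has no matched length. No limit of detection was computed because the FPKM carry no read counts, and 3 members, Dcp2-201, Dcp1b-001 and Patl1-201, had a mean under 1 FPKM.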

Other observations

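Genes of the steps around decapping were set beside it. Of 13 listed deadenylation genes, which shorten the poly(A) tail before decapping, the scaffold of the CCR4-NOT complex, *Cnot1*, had 50.6 FPKM in *Tdrd6*+/- and 76.4 FPKM in *Tdrd6*-/- cells. *Parn*, a poly(A)-specific ribonuclease, had 7.06 and 5.16 FPKM. Of the 26 deadenylation transcripts 4 were higher and 1 was lower by at least 1.5-fold, and 20 were above 0 (76.9%, against 51.2% of all transcripts), with a median log2 ratio of 0.33 that became 0.16 when centred on length bins. Of 16 listed genes of the exosome and its helicases, which degrade messages from the 3′ end, *Exosc5* was the most abundant with 722.8 and 522.0 FPKM. Of their 26 transcripts 4 were higher and 0 lower by 1.5-fold, with a median of 0.10 that became -0.02 when centred on length bins. The share of all distinct transcripts past 1.5-fold was 11.6% higher and 11.1% lower. These values are a description of pooled FPKM, and the lists were not tested against each other.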
